A study of Mus musculus with 6 samples.

Results

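Plac8, Hp, Spn, Ly6c2 and F13a1 are 5 genes that mark mouse monocytes and were examined here in bone marrow-derived macrophages, as 5 of the 10551 genes of the deposited count table. Monocytes leave the marrow as classical cells, which carry the Ly6C antigen and the chemokine receptor CCR2, or turn in the blood into non-classical cells, which lose Ly6C and gain CD43. Macrophages grown from marrow in culture pass through a monocyte stage, and the monocyte genes are known to fall as the cells mature. None of the 5 genes belongs to monocytes alone, since neutrophils, their precursors, platelets or lymphocytes are known to express them too.

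There were 3 libraries labelled as a macrophage-specific Dhps knockout (Dhps_delta_Myel) and 3 labelled control, all from C57BL/6J mice. Dhps encodes deoxyhypusine synthase, the enzyme that forms the precursor of hypusine on eIF5A, a factor of translation, and the study asks how this enzyme bears on pro-inflammatory macrophages. The promoter that drives the deletion, any stimulus, the age of the mice and whether replicates stem from different mice are not given in the sources used here, so that a p-value here covers only how far these libraries differ, possibly for technical reasons. The genes were chosen by name with their difference in CPM between knockout and control libraries already known, so their levels and fold changes are a description and their adjusted p-values support nothing. The gene lists below were also chosen with earlier results of these data known, so their calls and adjusted p-values are a description too.

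Library totals lay between 12960793 and 16224818 counts in knockout and between 11648710 and 15382816 counts in control libraries. Values are normalized CPM (counts per 1000000 counts of the library, with library sizes scaled by TMM, the trimmed mean of M values). Dhps transcript averaged 15.03 ± 2.86 CPM in knockout and 22.8 ± 1.67 CPM in control libraries (SD, n = 3 each), with no overlap between groups. Its log2 fold change was -0.59, with an adjusted p of 0.214 in edgeR, not under 0.05. Every knockout library lay below every control library in 575 of all 10551 genes. The labelled cell type showed its defining markers. Adgre1, which encodes F4/80, averaged 1338 CPM in knockout and 1512 CPM in control libraries, with no overlap between groups. Its range was 1241 to 1439 CPM in knockout and 1458 to 1567 CPM in control libraries. Csf1r, the receptor for the macrophage growth factor, averaged 1003 CPM in knockout and 1093 CPM in control libraries. Cd68, a lysosomal glycoprotein, averaged 473 CPM in knockout and 476 CPM in control libraries. For Csf1r and Cd68 the groups overlapped.

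All 5 genes had a higher mean in the knockout libraries, by 1.24-fold to 1.82-fold, where 48.7% of all genes had a log2 fold change above 0. None of them passed an adjusted p under 0.05 in edgeR's quasi-likelihood test with Benjamini-Hochberg adjustment over all genes. Of all 10551 genes 0.104% passed, 0.0948% on the higher and 0.00948% on the lower side. For Plac8, Hp and Spn every knockout library lay above every control library, a pattern found in 5.73% of all genes, while Ly6c2 and F13a1 overlapped between groups. The median log2 fold change of the 5 genes was 0.64, against -0.0044 over all genes tested.

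**Figure D1:**
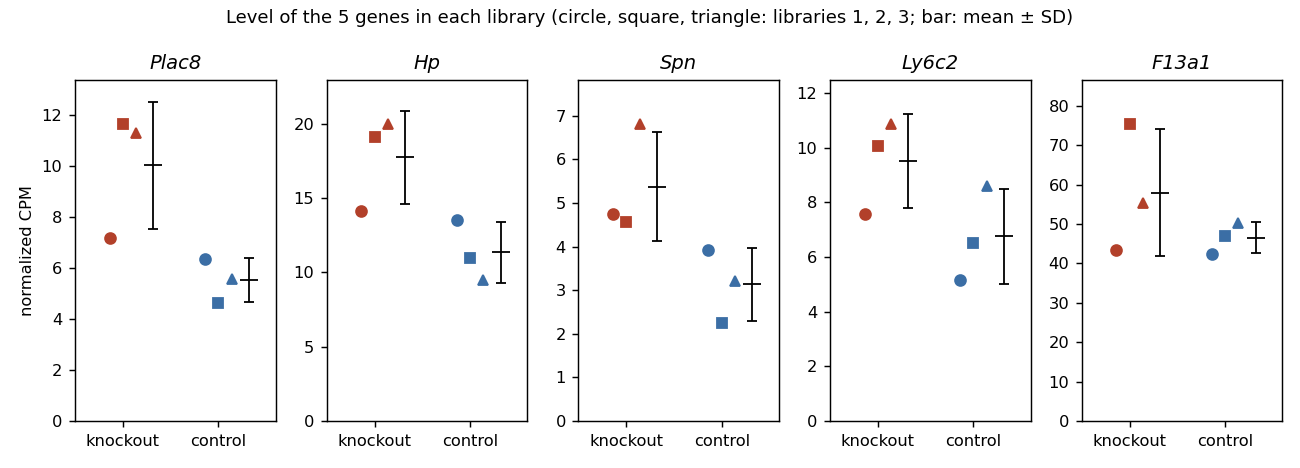
Normalized CPM of the 5 genes in each library, with Dhps knockout libraries in red and control libraries in blue. Horizontal bars with whiskers give the mean ± SD (n = 3 each). For Plac8, Hp and Spn the groups do not overlap, with knockout library 1 closest to the control libraries for Plac8 (7.15 CPM) and Hp (14.2 CPM).

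Plac8 encodes a small cysteine-rich protein of myeloid and lymphoid cells, which mouse neutrophils need to kill bacteria well. It lay at 7.15, 11.6 and 11.3 CPM in knockout libraries 1, 2 and 3 and at 6.35, 4.63 and 5.57 CPM in control libraries 1, 2 and 3. Knockout library 1 was only a little above control library 1, and knockout libraries 2 and 3 stood clear of the rest. The log2 fold change was 0.86 (SE 0.21, 95% interval 0.42 to 1.30, adjusted p = 0.216 in edgeR), which is 1.82-fold, and the gene ranked 34 of 10551 by p. Without knockout library 1 the log2 fold change was 1.06 and passed (adjusted p = 0.031), the single setting tried in which 1 of the 5 genes passed. Plac8 spans bases 100553733 to 100572205 of chromosome 5 (mm10, minus strand) in 5 exon pieces.

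Hp encodes haptoglobin, the plasma protein that binds free haemoglobin, made mainly in liver and known in human neutrophils as a granule protein. Its values were 14.2, 19.1 and 20.0 CPM in knockout libraries and 13.6, 11.0 and 9.48 CPM in control libraries. As for Plac8, knockout library 1 was the lowest of its group, control library 1 was the highest of its own, and these 2 lay close together. The log2 fold change was 0.64 (SE 0.16, 95% interval 0.30 to 0.99, adjusted p = 0.290 in edgeR). It lies on chromosome 8 from 109575128 to 109579172, on the minus strand.

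Spn encodes CD43 (leukosialin), a heavily sialylated mucin of the leukocyte surface that is higher on non-classical than on classical monocytes. It was the least abundant of the 5 genes, with 69, 59 and 111 counts in knockout and 55, 35 and 37 counts in control libraries. These counts correspond to 4.75, 4.57 and 6.81 CPM in knockout and 3.93, 2.25 and 3.22 CPM in control libraries. Here knockout library 3 stood apart, and knockout libraries 1 and 2 were close to control library 1. The log2 fold change was 0.79 (SE 0.26, 95% interval 0.25 to 1.33, adjusted p = 0.509 in edgeR). Counting error alone would give a coefficient of variation of 11.2% in knockout and 15.4% in control libraries, against an observed 23.1% in knockout and 26.9% in control libraries. Spn spans bases 127132232 to 127137823 of chromosome 7, on the minus strand.

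Ly6c2 encodes a glycolipid-anchored surface protein, one of a pair that make up the Ly6C antigen of classical monocytes. It lay at 7.57, 10.1 and 10.9 CPM in knockout libraries and at 5.14, 6.49 and 8.61 CPM in control libraries, so that knockout library 1 lay below control library 3. The log2 fold change was 0.50 (SE 0.20, 95% interval 0.07 to 0.93, adjusted p = 0.676 in edgeR). Ly6c2 lies on chromosome 15 from 75108161 to 75111949. Its neighbour Ly6c1 encodes the other protein of the pair and was not analysed here. Their coding sequences are shown because reads may not tell the genes apart. In the GENCODE M21 transcripts the open reading frames of 396 bases differ at 9 positions (97.7% identity) and share a run of 188 bases. The first 90 coding bases hold 6 of the 9 differences, in capitals:

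Ly6c2: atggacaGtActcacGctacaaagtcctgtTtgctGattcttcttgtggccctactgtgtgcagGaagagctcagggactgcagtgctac

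Ly6c1: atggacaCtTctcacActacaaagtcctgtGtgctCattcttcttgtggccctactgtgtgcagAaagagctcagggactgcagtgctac

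Of 767 different windows of 100 bases in Ly6c2 coding transcripts, 114 (14.9%) occur letter for letter in Ly6c1 transcripts, and for Plac8, Hp, Spn and F13a1 0 windows occur in another gene. The Ly6c2 count is therefore uncertain to the extent that the authors' counting could move reads between the pair.

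F13a1 encodes the A subunit of coagulation factor XIII, a transglutaminase that cross-links fibrin and is made by monocytes, macrophages and megakaryocytes. It was the most abundant of the 5 genes, with 43.4, 75.3 and 55.2 CPM in knockout and 42.5, 46.9 and 50.3 CPM in control libraries. Knockout library 1 lay inside the control range and knockout library 2 far above it, and the spread was 27.8% of the mean in knockout libraries against 8.38% in control libraries. The log2 fold change was 0.32 (SE 0.15, 95% interval -0.00047 to 0.63, adjusted p = 0.771 in edgeR), and 0.085 without knockout library 2. The gene spans bases 36867178 to 37050244 of chromosome 13 in 16 exon pieces, and 14 of its exonic bases are also exonic in Gm30489 on the opposite strand. Strand use in counting is not given in the sources used here.

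**Figure D2:**
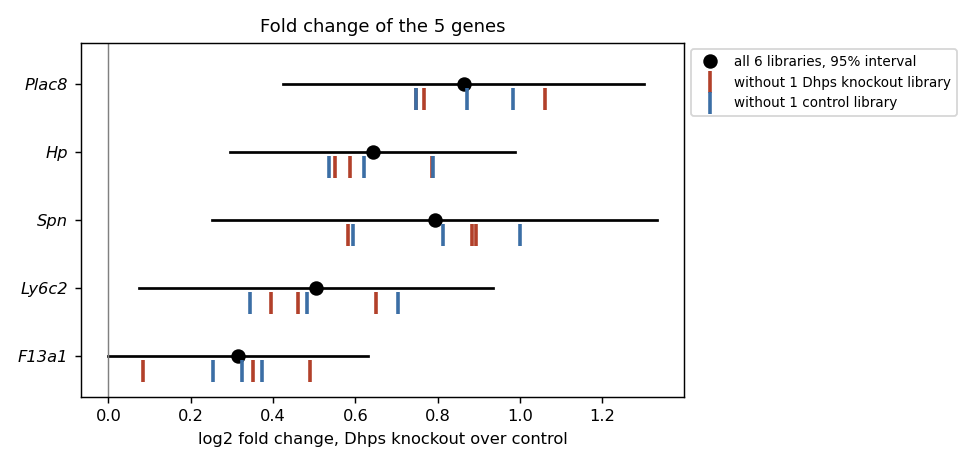
Log2 fold change of the 5 genes, Dhps knockout over control. Circles and lines give the estimate from all 6 libraries with its 95% interval, and ticks give the estimate with 1 library left out, red for knockout and blue for control libraries. Estimates stay above 0 for each library left out, from 0.75 to 1.06 for Plac8 and from 0.085 to 0.49 for F13a1.

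Knockout library 1 was the lowest of its group for 4 of the 5 genes (Plac8, Hp, Ly6c2 and F13a1), and knockout library 3 was the highest of its group for 3. Summed over the 5 genes, the level was 77.0, 121 and 104 CPM in knockout libraries and 71.5, 71.3 and 77.1 CPM in control libraries, with F13a1 the main part of it. By this sum knockout library 1 was level with control library 3. Per length, Spn was the lowest in both groups, with a mean of 1.14 CPM per kb of exon in knockout and 0.667 in control libraries. The other 4 were alike in knockout libraries, with means of 14.8 (F13a1), 14.4 (Plac8), 13.2 (Hp) and 11.9 (Ly6c2) CPM per kb and ranges that overlap. In control libraries F13a1, at 11.9 CPM per kb, lay above the ranges of Hp (8.44), Ly6c2 (8.42) and Plac8 (7.93), which overlap one another. Per length 61.6% of all genes lay below Plac8 and 11.1% below Spn.

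The upstream sequences of Plac8 and Spn, with the widest differences, and of Ly6c2, which defines the classical monocyte, were searched for motifs of factors known from myeloid cells: PU.1 (GAGGAAGT), the C/EBP family (TTGCNNAA) and the KLF family (CCACCC), each on both strands. The windows are the 250 bases before the RefSeq transcript start (build GRCm38.p6), all on the minus strand, printed 5′ to 3′ along the gene with motif matches in capitals. Entries for 4 of the 5 genes matched by symbol, and the table gave none for Hp. The start was at the end of the first deposited exon for Plac8, Spn and F13a1. For Ly6c2 it was 12 bases inside the deposited span, so the last 12 bases of its window lie within the deposited gene.

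Plac8, chr5:100572206-100572455: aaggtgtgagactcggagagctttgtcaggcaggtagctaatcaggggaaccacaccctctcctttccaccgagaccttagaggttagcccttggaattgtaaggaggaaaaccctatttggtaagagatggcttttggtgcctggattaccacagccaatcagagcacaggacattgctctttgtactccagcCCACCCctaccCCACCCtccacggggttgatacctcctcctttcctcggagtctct

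Spn, chr7:127137824-127138073: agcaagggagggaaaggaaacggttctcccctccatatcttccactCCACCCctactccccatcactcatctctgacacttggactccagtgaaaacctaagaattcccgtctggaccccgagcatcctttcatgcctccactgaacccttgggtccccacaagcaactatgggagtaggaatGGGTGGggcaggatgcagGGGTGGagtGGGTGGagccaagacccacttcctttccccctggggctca

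Ly6c2, chr15:75111938-75112187: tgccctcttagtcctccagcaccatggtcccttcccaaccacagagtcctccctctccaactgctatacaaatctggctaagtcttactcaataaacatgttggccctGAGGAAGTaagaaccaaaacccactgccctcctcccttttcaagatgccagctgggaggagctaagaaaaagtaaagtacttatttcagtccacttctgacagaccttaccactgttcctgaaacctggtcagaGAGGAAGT

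Plac8 held 2 KLF-type matches and Spn 4, and 28.1% of 32536 promoter windows held at least 1. The share of windows with 2 or more matches was not counted for any motif. Ly6c2 held 2 PU.1-type matches, which 2.45% of windows hold at least once. The second of them ends at the base before the RefSeq start and lies within the deposited span of the gene. The C/EBP letters, found in 9.57% of windows, occurred in none of the 3, and the F13a1 window held none of these motifs. A match of letters does not show that a factor binds there.

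The other classical monocyte markers lay on both sides of 0. Of 19 measured genes of that list, none of them among the 5, 0 rose and 0 fell, 7 had a log2 fold change above 0 and 12 below, and the median was -0.042. Ccr2, the receptor through which monocytes leave the marrow, was the highest, at 3.64 to 7.29 CPM in knockout and 2.57 to 4.05 CPM in control libraries (log2 fold change 0.68, adjusted p = 0.673 in edgeR, and 0.40 without knockout library 1). S100a4, a calcium-binding protein of motile cells, was the lowest, at 155 to 181 CPM in knockout and 193 to 224 CPM in control libraries (-0.36, adjusted p = 0.298 in edgeR). S100a6 (-0.18) and the chemokine gene Ccl9 (-0.17) had the next smallest p-values. The summed level of the list was 10511 to 11375 CPM in knockout and 11729 to 11870 CPM in control libraries. Of 14 measured non-classical markers 7 were above 0 and 7 below, with a median of 0.0021, and 0 passed. Pglyrp1, a peptidoglycan-binding protein that neutrophils also hold, had a log2 fold change of 0.83 at 3.45 CPM in knockout and 1.96 CPM in control libraries, and Gngt2 one of -0.26.

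**Figure D3:**
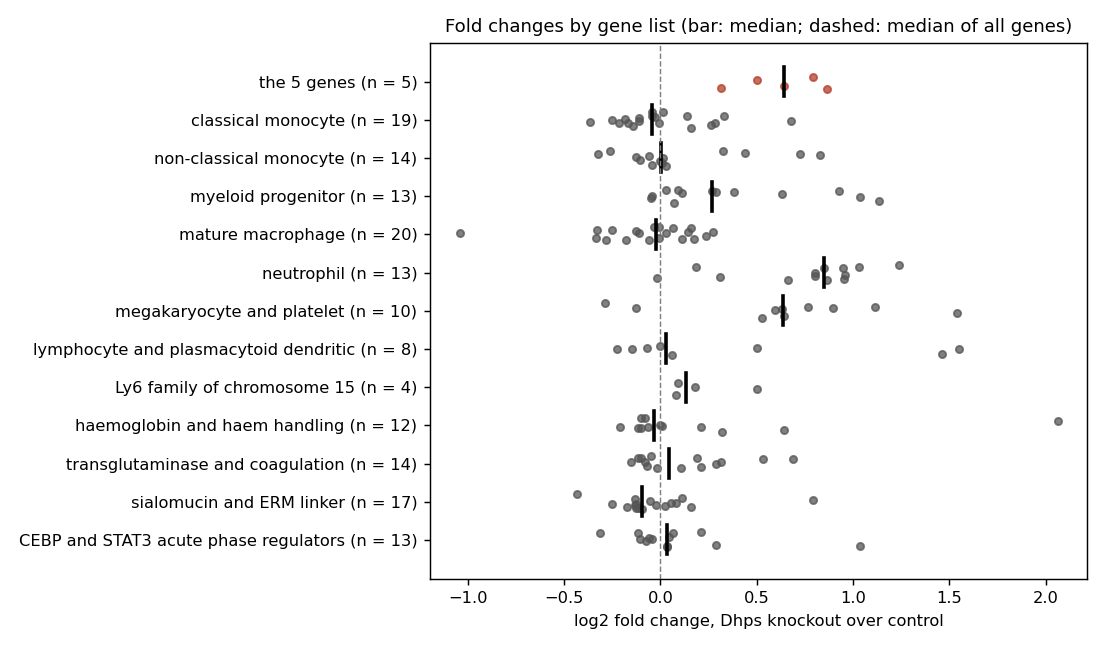
Log2 fold change, Dhps knockout over control, of every measured gene of each list (points), with the list's median as a bar and the median of all genes as a dashed line. The 5 genes (red), the neutrophil list and the megakaryocyte and platelet list lie to the right, with medians of 0.64, 0.85 and 0.64. The last median is 0.61 without Gp9 and Tubb1, which are drawn but whose direction was set by the limit on low genes. The classical monocyte list has a median of -0.042.

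Markers of neutrophils, which also express Plac8, Hp and Spn, were higher in the knockout libraries. Of 13 measured genes of 16 listed, 5 rose (Ngp, S100a8, Lcn2, S100a9 and Ltf), 0 fell and 8 did not pass, with 12 of 13 log2 fold changes above 0 and a median of 0.85. Of all 10551 genes 0.0948% were called higher and 48.7% had a log2 fold change above 0. Ngp, a granule protein of neutrophil precursors, lay at 65.0 to 87.1 CPM in knockout and 26.9 to 36.0 CPM in control libraries (log2 fold change 1.24, adjusted p = 1.5e-04 in edgeR). S100a9 (0.85) and the lactoferrin gene Ltf (0.96) did not pass without control library 2 (adjusted p = 0.082 and 0.084 in edgeR), whereas Ngp, S100a8 (0.95) and Lcn2 (0.87) passed with each library left out. The summed level of the list was 1402, 1352 and 1601 CPM in knockout libraries and 1168, 851 and 931 CPM in control libraries. This sum includes the 8 genes that did not pass. By it knockout library 1, low for 4 of the 5 monocyte genes, was above every control library. Gene by gene, it was also the lowest knockout library for each of the 5 neutrophil genes that rose. For Ngp it lay 1.04 above the control mean in log2 units, against 1.16 and 1.46 in knockout libraries 2 and 3. Control library 1 was the highest of its group for Ngp, S100a8, S100a9 and Ltf, but not for Lcn2. For Mmp9, Csf3r, Wfdc21 and Cd177 the lowest knockout library was library 2. Ly6g, Cxcr2 and Retnlg were not analysed here. The part of neutrophil-type RNA in the levels of the 5 genes was not tested. In bulk RNA more cells of a type and more RNA per cell cannot be told apart.

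**Figure D4:**
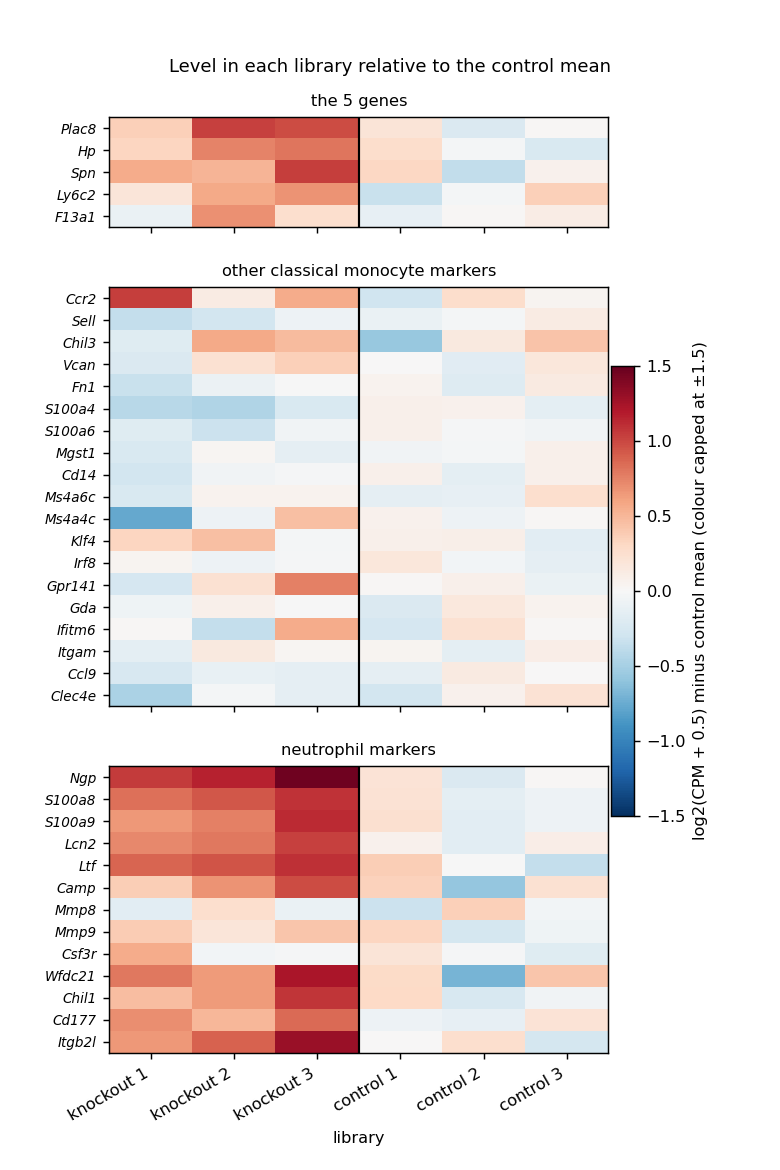
Level in each library relative to the control mean, as log2(CPM + 0.5), for the 5 genes, 19 other classical monocyte markers and 13 neutrophil markers, with knockout libraries left of the line. Red is higher and blue lower. Most neutrophil markers are red in all 3 knockout libraries. Of the knockout libraries, library 1 is the palest for Plac8, Hp and Ly6c2 and slightly blue for F13a1, and the other monocyte markers are red or blue.

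Genes of early myeloid cells lay partly on the higher side. Of 13 measured genes of the progenitor list 11 were above 0, the median was 0.27 (0.11 without knockout library 3), and 0 passed. The primary granule genes Mpo, for myeloperoxidase (0.93, adjusted p = 0.306 in edgeR), and Prtn3, for proteinase 3 (1.14, adjusted p = 0.366 in edgeR), came first by p. They averaged 10.6 and 5.26 CPM in knockout and 5.61 and 2.42 CPM in control libraries. Cebpe, a factor of granulocyte maturation, followed (1.04 at 1.93 CPM in knockout and 0.946 CPM in control libraries). Of 10 megakaryocyte and platelet genes, whose cells are a source of F13a1, 0 passed. Gp9 and Tubb1 exceeded 1 CPM in knockout libraries alone, and since every gene of the table exceeds 1 CPM in at least 3 libraries, their direction was set by that limit. Of the other 8 genes 6 were above 0, with a median of 0.61. Ppbp (0.77, adjusted p = 0.142 in edgeR) and the integrin genes Itgb3 (0.60, adjusted p = 0.362, and 0.021 without control library 1) and Itga2b (0.64) led the list by p. The summed level of this list was lower in knockout libraries, 1316 to 1436 CPM against 1525 to 1817 CPM in control libraries, through Pf4, which makes up most of it. Without Pf4 the sums were 137 to 157 CPM in knockout and 120 to 141 CPM in control libraries. Of 8 lymphocyte and plasmacytoid dendritic cell genes 4 were above 0 (median 0.029) and 0 passed. Cd4 (1.55) and Jchain (1.46) averaged 2.20 and 2.22 CPM in knockout and 0.730 and 0.765 CPM in control libraries. In control libraries they lay around the 1 CPM limit, at 0.348 to 1.07 and 0.143 to 1.54 CPM. Cebpe did too, at 0.785 to 1.22 CPM. The part of that limit in the fold changes of Cd4, Jchain and Cebpe was not tested.

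Mature macrophage genes lay on both sides of 0. Of 20 measured genes 1 fell and 19 did not pass, with a median of -0.021. For 6 of the 20 every knockout library lay below every control library, and for 0 above. Over all 10551 genes these patterns were found in 575 and 605. The gene that fell was Lyz2, the lysozyme of myeloid cells, at 8060 to 9462 CPM in knockout and 16267 to 19080 CPM in control libraries (-1.04, adjusted p = 7.2e-05 in edgeR). C1qc (-0.33), C1qa (-0.28) and the Fc receptor gene Fcgr1 (-0.33) came next by p. Without Lyz2 the summed level was 41079 to 44504 CPM in knockout and 42455 to 45856 CPM in control libraries.

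Genes that work with the 5 proteins were looked at by system. Around Hp, Cd163, the macrophage receptor for haptoglobin bound to haemoglobin, had the highest fold change of the haem list (2.06, SE 0.45, adjusted p = 0.142 in edgeR and 0.0084 in DESeq2). It was scarce, at 2.57 to 5.66 CPM in knockout and 0.174 to 1.16 CPM in control libraries. The control values thus lay around the 1 CPM limit of the table. The part of that limit in the fold change of Cd163 was not tested. Hmox1, which breaks haem down, lay at 232 CPM in knockout and 200 CPM in control libraries (0.21, and 0.11 without knockout library 1), and Fth1, the ferritin heavy chain, at 10949 CPM in knockout and 8757 CPM in control libraries (0.32, and 0.17 without knockout library 1). Of the 12 genes 0 passed and the median was -0.034. Around F13a1, the coagulation and transglutaminase list of 14 had 7 genes above 0, 0 that passed and a median of 0.045, with F5, which encodes coagulation factor V (0.53), and Serpinb2, an inhibitor of plasminogen activators (0.29), first by p.

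Around Spn, the 17 genes of sialomucins, their glycosyltransferases and ERM proteins had a median of -0.096, and 0 passed. Siglec1, the sialic acid receptor of macrophages that binds CD43, lay at 106 to 124 CPM in knockout and 127 to 204 CPM in control libraries (-0.43, adjusted p = 0.495 in edgeR, and -0.21 without control library 1). Msn, which encodes moesin, the linker of CD43 to actin, had a log2 fold change of 0.16. Of the 4 measured Ly6 genes, Ly6e (0.080), Ly6a (0.090) and Ly6i (0.18) had smaller fold changes than Ly6c2, and each of these 3 turned below 0 without control library 2. Of 13 genes of the C/EBP and STAT3 pathway, which drives Hp in the acute phase response of liver, 7 were above 0 and 0 passed (median 0.033), with Cebpa at 0.29 (0.12 without knockout library 1) and Cebpd at -0.31 (-0.13 without control library 2). Cebpa and Cebpe are also in the progenitor list.

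Genes with the most similar course over the 6 libraries were ranked by Pearson's r of log2 CPM among genes with a mean of at least 5 CPM. With 6 libraries and 8022 genes ranked, r is given as a description. The nearest to Plac8 were Hnrnph1 (0.990), Acadl (0.974), Zfp280d (0.969), Prpf39 (0.968) and Gpcpd1 (0.966). Hp lay nearest to Gins2 (0.990), Emb (0.985), Adpgk (0.983), Gpcpd1 (0.979) and Mill2 (0.975), sharing Gpcpd1 with Plac8. Ranked against Spn, Mefv (0.985), Acpp (0.981), Hars2 (0.980), Cyb561a3 (0.978) and the neutrophil list gene Chil1 (0.974) came first, among 8023 genes. For Ly6c2 they were Fem1c (0.990), Fsd1l (0.983), Ttc14 (0.982), Taf15 (0.976) and Eogt (0.974). For F13a1 they were Zw10 (0.997), Pcm1 (0.994), Cd164 (0.972), Gyk (0.971) and Pinx1 (0.964). None of these genes passed in edgeR's test.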

How the data were processed

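The authors deposited raw read counts per gene, beside the position of each exon and the gene's total exon length, per the file headers. Per the submitters' processing notes, the build was mm10 and the tools were edgeR, featureCounts, STAR 2.4.2a and Subread 1.5.0, each named without a role. The gene annotation is not given in the sources used here. Every one of the 10551 genes exceeded 1 CPM in at least 3 libraries. Genes low in most libraries therefore do not enter the comparison, but genes low in 1 group do. Of all genes, 31 exceeded 1 CPM in every knockout library and in no control library. 0 per-sample columns were left unused.

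Counts were scaled by TMM and tested across all genes with edgeR 4.0.16 (quasi-likelihood, two-sided, genotype only, R 4.3.3), after filterByExpr with a minimum count of 10, which removed 0 genes. P-values were adjusted by Benjamini-Hochberg, with calls under 0.05. Intervals are 95%. CPM per kb uses the deposited length. The test was checked on simulated counts. Members and lists were chosen with earlier results of these data known. The text names the 5 genes, up to 4 genes of each list by p plus those that passed, and the 5 nearest genes by r. DESeq2 1.42.0, limma-voom (limma 3.58.1), other size factors, other filters, an adjusted p under 0.1, a replicate block and libraries left out in turn were alternatives. Transcripts and exon overlaps came from GENCODE M21 and promoters from RefSeq (GRCm38.p6).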

Additional observations from a re-analysis of the deposited data

How the results depend on the processing

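The log2 fold changes of the 5 genes kept their sign under every alternative run. With 1 library left out they ranged from 0.75 to 1.06 for Plac8, from 0.54 to 0.79 for Hp, from 0.58 to 1.0001 for Spn, from 0.34 to 0.70 for Ly6c2 and from 0.085 to 0.49 for F13a1, and the number of the 5 genes called ranged from 0 to 1, Plac8 without knockout library 1. Other size factors, filters and tests moved Plac8 between 0.84 and 0.89. The number of genes called was 11, ranged from 4 (without control library 2) to 19 (without control library 1) with 1 library left out, and was 7 without control library 3 and 22 with DESeq2. With the replicate number as a block it was 35, none of them among the 5 genes (adjusted p = 0.092 for Plac8 and 0.112 for Hp). Under the block Ppbp (adjusted p = 0.043 in edgeR), Itgb3 (0.014), Cd163 (0.010) and Dhps (0.033) passed. With it 2 megakaryocyte and platelet genes were called, against 0 without it. Deviations of same-numbered libraries correlated at 0.23, 0.0014 and 0.22, and not every library correlated best with its own number, so the numbers were not taken as pairs. With 1 library left out, 4 genes that did not pass crossed 0, and the cause was not tested: Ly6e (from -0.081 to 0.35), Ly6i (from -0.21 to 0.53), Ly6a (from -0.11 to 0.34) and Bst2 (from -0.28 to 0.0020). The median of the classical monocyte list ranged from -0.093 to 0.031, and that of the non-classical list from -0.054 to 0.0092. Jchain, which did not pass, ranged from 0.96 to 2.59. Summing Ly6c1 with Ly6c2 was not run. Spn, at 35 counts in its lowest library (95% Poisson interval 24.4 to 48.7, counting error only), is the gene that depth limits most. Groups of 3 are too small for a test of outlying samples.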
